A study of Homo sapiens with 16 samples.

Results

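The NR4A family of orphan nuclear receptors comprises NR4A1 (Nur77), NR4A2 (Nurr1) and NR4A3 (NOR-1). All non-control probes that the array names after these 3 genes were taken, which gave 5 probes among 41000, 2 for NR4A1, 1 for NR4A2 and 2 for NR4A3. Gene expression had been measured on Agilent one colour human whole genome arrays in Caco-2 cells, an established line from a human colon adenocarcinoma, that were used while undifferentiated. There were 16 arrays, 4 for each condition, from 4 independent experiments whose cells differed by few passages. PT-G cells received gliadin, the wheat protein fraction that drives celiac disease, after digestion with pepsin and trypsin. PT cells received a blank digest with both enzymes and no substrate, and in both digests the enzymes had been inactivated by heat. A synthetic gliadin peptide was given to the p31-43 cells at 150 µg/ml, and MED-CTL cells stayed in medium. Every culture was exposed for 6 h in medium with low serum, and every culture, MED-CTL included, was then harvested with trypsin-EDTA. The question for this family was whether its genes responded to the gliadin digest, to the enzymes without gliadin, or to the peptide.

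NR4A receptors are called orphans because no ligand from the cell is established for them, and they act largely without one. Their activity is set mainly by how much of them the cell makes. All 3 are immediate early genes, transcribed within a short time after growth factors, stress or a rise in cyclic AMP, through factors such as CREB, SRF and MEF2 that are already in the cell. The proteins bind DNA at the NGFI-B response element, alone or, for NR4A1 and NR4A2, together with the retinoid X receptors. In epithelial cells they have been connected with proliferation and with apoptosis.

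A sequence is shown because a rise in cyclic AMP is among the signals described for these genes. It is the stretch of 250 bases before the gene start of NR4A3, which had the largest change of the family, from RefSeq on GRCh38.p14, plus strand, 5′ to 3′, at chr9:99821635-99821884. Capitals mark each copy of TGACG, the core of the cyclic AMP response element (CRE), on either strand, where the other strand reads CGTCA.

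NR4A3: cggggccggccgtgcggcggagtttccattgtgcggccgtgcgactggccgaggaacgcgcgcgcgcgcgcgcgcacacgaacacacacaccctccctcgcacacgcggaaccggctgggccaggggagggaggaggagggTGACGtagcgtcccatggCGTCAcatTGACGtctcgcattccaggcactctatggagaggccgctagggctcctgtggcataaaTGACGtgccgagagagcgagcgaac

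The 4 copies lay 109, 91, 83 and 25 bases before the start. Of 35116 windows of the same length in the RefSeq promoter table, 21.2% held at least 1 copy and 0.236% held 4 or more. The longer palindrome TGACGTCA, which contains the core, was in 1.65% of the windows and not in that of NR4A3. Other motifs searched on both strands were the NGFI-B response element AAAGGTCA (in 1.05% of windows), the EGR site GCGTGGGCG (0.72%), the AP-1 site TGAGTCA (4.2%), the CArG box of SRF (1.16%) and the MEF2 site (2.8%), and none of them was in the NR4A3 window. For NR4A1 the table lists 2 starts, without the transcript that begins at each. Neither window, chr12:52022582-52022831 or chr12:52037465-52037714, held any of these motifs. No promoter window of NR4A2 was searched. A match of letters is a description and not a bound site. Cyclic AMP was not measured, and whether the measured NR4A3 transcript begins at the start used here was not tested.

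The probes differ in what they measure. The NR4A1 probe A_23_P128230 is annotated to transcript variant 1 (NM_002135) and was well above background on all 16 arrays. A second NR4A1 probe, A_23_P309278, is annotated to variant 3 (NM_173158), begins 3515 bases away on chromosome 12, and was also well above background on 16 arrays but dim. The NR4A2 probe A_23_P131208 (NM_006186, chromosome 2) was well above background on 14 arrays, the exceptions being MED-CTL replicate 2 and PT replicate 4. For NR4A3, A_23_P398566 (variant 2, NM_173198, chromosome 9) was well above background on 16 arrays, whereas A_23_P306867 (variant 4, NM_173199), which begins 33234 bases away, was so on 0 arrays. The array places these probes, in the same order, at positions 50739445 to 50739504 and 50735930 to 50735989 on chromosome 12, 157007235 to 157007294 on chromosome 2, and 99708540 to 99708599 and 99675306 to 99675365 on chromosome 9, in a genome build that its files do not name. Levels are therefore compared within a probe and not between probes.

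The 16 arrays came from 4 runs of 1 array per condition, a run being the arrays with the same date in their names, and lay on 5 slides. Median intensity per array ranged from 153 to 410 over a local background of 48 to 65, and between 27660 and 33947 of 45015 spots were well above background. Values below are log2 intensities after quantile normalisation without background subtraction, so that changes of dim probes are understated. All 8 intestinal epithelial marker genes were well above background on 16 arrays, with summed intensities of 600098 to 794670. Among them KRT20, a keratin of maturing enterocytes, was called higher in PT-G, by 0.63 (adjusted p = 0.025 in limma). In PT it stood 0.49 higher (adjusted p = 0.093 in limma). Only 2 of the 8 were above 0 in PT-G and 1 in PT. The lowest was CDX2, at −0.72 and −0.65 (adjusted p = 0.903 and 0.8 in limma). Markers of blood cells, fibroblasts and endothelium were well above background on all arrays for 2 of 4, 2 of 4 and 2 of 3 genes. On no array were 2, 0 and 1 of them so. PTPRC, which marks leukocytes, was not well above background on any array. Their summed intensities in MED-CTL, p31-43, PT and PT-G were 899 to 1374, 888 to 1311, 926 to 1397 and 905 to 1068 for blood cells, 787 to 1075, 728 to 943, 699 to 830 and 650 to 991 for fibroblasts, and 430 to 668, 409 to 672, 446 to 688 and 460 to 656 for endothelium, with overlapping ranges in each list. The fibroblast marker COL3A1 stood at −0.46 in PT-G and −0.53 in PT (adjusted p = 0.448 and 0.272 in limma), and its PT arrays lay below all MED-CTL arrays. The part of these differences in the NR4A results was not tested. In bulk RNA, fewer cells with a transcript and less of it per cell cannot be told apart.

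**Figure D1:**
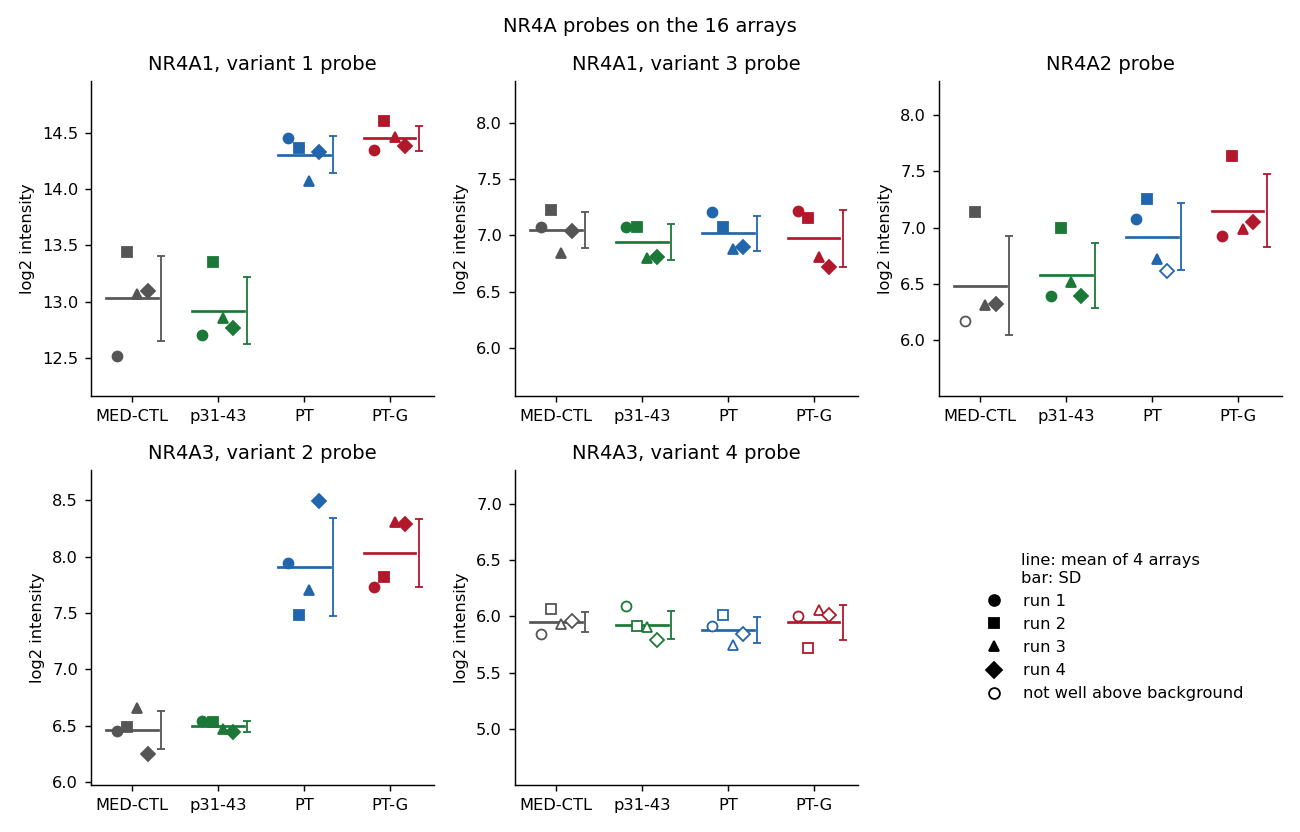
Log2 intensity of the 5 NR4A probes on each of the 16 arrays by condition, with 1 panel per probe and the same span on every y axis. Symbols give the run, open symbols are spots not well above background, lines are means of 4 arrays and bars are SD. PT and PT-G arrays lie above all MED-CTL and p31-43 arrays for the NR4A1 variant 1 probe and the NR4A3 variant 2 probe.

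NR4A1 and NR4A3 were higher after PT-G and after PT than in medium. NR4A2 had a higher mean in both but did not pass the adjustment, and none of the family passed it after p31-43. PT-G and PT gave differences from medium of like size, with no NR4A probe past the threshold between them.

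NR4A1, the family member known for its rapid response to growth factors and for effects on cell death, was bright in medium already. In runs 1 to 4 the variant 1 probe stood at 12.52, 13.44, 13.07 and 13.09 in MED-CTL. It stood at 14.35, 14.60, 14.47 and 14.39 in PT-G and at 14.45, 14.37, 14.07 and 14.33 in PT. All 8 digest arrays were above the highest medium array, as was so for 2.02% of the 40982 probes tested in PT-G and 2.28% in PT, and the PT and PT-G ranges overlapped. The log2 change in PT-G was 1.42 (SE 0.176, adjusted p = 0.00149 in limma), a 2.68-fold rise with a 95% interval of 2.06 to 3.48. In PT it was 1.28 (SE 0.176, adjusted p = 0.00382 in limma), or 2.42-fold (1.86 to 3.15).

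NR4A3, a receptor with the same DNA-binding specificity, was dim in medium and rose most in the family. In runs 1 to 4 the variant 2 probe stood at 6.45, 6.49, 6.65 and 6.25 in MED-CTL. It reached 7.73, 7.82, 8.30 and 8.29 in PT-G and 7.94, 7.48, 7.70 and 8.49 in PT. The lowest digest array was thus above the highest medium array, while PT-G and PT overlapped over most of their ranges. The log2 change was 1.58 in PT-G (SE 0.188, adjusted p = 0.00141 in limma) and 1.44 in PT (SE 0.188, adjusted p = 0.00285 in limma), corresponding to 2.98-fold and 2.72-fold. Because this probe is close to background in medium, the fold depended on the background: with the background-subtracted signal it was 6.07 in PT-G and 5.42 in PT, compared with 2.80 and 2.52 for NR4A1.

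NR4A2, best known as the receptor needed for dopamine neurons, was near background in medium. In runs 1 to 4 its probe stood at 6.17, 7.14, 6.32 and 6.32 in MED-CTL, at 6.93, 7.63, 6.99 and 7.05 in PT-G and at 7.08, 7.25, 6.73 and 6.62 in PT. The ranges overlapped because the medium array of run 2 was high, as were the run 2 arrays of the other conditions, each of which was the highest of its group. The log2 change was 0.67 in PT-G (SE 0.229, adjusted p = 0.317 in limma) and 0.43 in PT (SE 0.229, adjusted p = 0.656 in limma). With the run as a block in the model, NR4A2 passed the threshold in limma, with adjusted p = 0.00364 in PT-G and 0.0315 in PT. That model also called 5.73% of all probes in PT-G and 6.5% in PT. With the background-subtracted signal and no block the fold of NR4A2 was 2.92 in PT-G and 2.27 in PT, with adjusted p = 0.301 and 0.524 in limma. NR4A1 had 2.80 and 2.52 with that signal, so the order of these genes in PT-G depended on the background.

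The remaining probes did not follow these patterns. The NR4A1 variant 3 probe lay between 6.84 and 7.23 in MED-CTL, between 6.72 and 7.22 in PT-G and between 6.88 and 7.21 in PT. Its log2 change was −0.07 in PT-G and −0.03 in PT (SE 0.129 in both), and the fold intervals were 0.786 to 1.15 and 0.809 to 1.19. The 2 probes of NR4A1 thus disagreed. The NR4A3 variant 4 probe was not well above background on any array, so no fold is given.

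Counted over the family, 2 of 5 probes passed an adjusted p under 0.05 in PT-G, both higher, where 0.583% of the 40982 probes tested were called higher and 0.93% in either direction. In PT the same 2 probes were called, both higher, with 0.434% of all probes called higher and 0.83% in either direction. The replicate number as a block left 2 NR4A probes called in each comparison, while the count over all probes went from 381 to 1608 (3.92%) in PT-G and from 340 to 1774 (4.33%) in PT. Ordered by log2 change, 27 probes (0.0659%) rose at least as much as NR4A3 in PT-G and 41 (0.1%) as much as NR4A1, the gene's own probe included. In PT these numbers were 49 (0.12%) and 73 (0.178%). Both comparisons use the same MED-CTL arrays and are not independent.

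**Figure D2:**
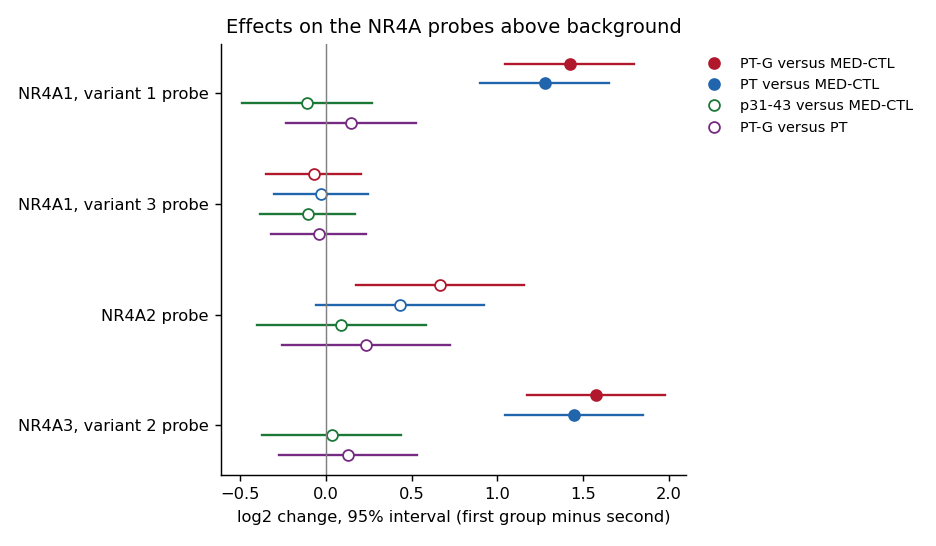
Log2 change of the 4 NR4A probes that were well above background on at least 14 arrays, for the 4 comparisons named in the key, each the first group minus the second. Points are limma estimates from 4 arrays per group, filled where the adjusted p was under 0.05 and open otherwise, and lines are 95% intervals. PT-G and PT are at 1.28 or more for NR4A1 variant 1 and NR4A3 variant 2, and the intervals of p31-43 and of PT-G versus PT include 0 for every probe.

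The comparison of PT-G with PT asks what gliadin adds to the enzymes. NR4A1 was 0.15 higher in PT-G on the log2 scale, a ratio of 1.11 with a 95% interval of 0.851 to 1.44. For NR4A3 the difference was 0.13, with a ratio of 1.09 (0.829 to 1.45), and for NR4A2 it was 0.23, with a ratio of 1.18 (0.836 to 1.65). None passed the threshold in limma (adjusted p = 1 for each), in a comparison in which 0% of the 40982 probes did. Without a block, an unadjusted p under 0.05 was reached by 312 probes (0.761%) and by 0 of NR4A. With the run as a block, the SE of the NR4A2 difference fell to 0.104, and the adjusted p in limma was 0.9 (unadjusted 0.0461). The intervals leave room for a moderate difference in either direction.

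After the synthetic peptide, the NR4A1 variant 1 probe stood at 12.71, 13.35, 12.85 and 12.77 in the p31-43 arrays of runs 1 to 4, NR4A2 at 6.39, 7.00, 6.51 and 6.40, and NR4A3 at 6.54, 6.53, 6.47 and 6.44. All of these values were inside the MED-CTL range of the same probe. The NR4A1 variant 3 probe stood at 7.08, 7.08, 6.80 and 6.81, where the values of runs 3 and 4 were below its lowest medium array of 6.84, and it exceeded medium in 0 of 4 runs. Its log2 change was −0.11 (SE 0.129). The p31-43 to MED-CTL ratio was 0.927 for NR4A1 (95% interval 0.714 to 1.20), 1.06 for NR4A2 (0.757 to 1.50) and 1.02 for NR4A3 (0.774 to 1.35), with adjusted p = 1 in limma for each NR4A probe. Again 0% of all probes passed. An unadjusted p under 0.05 was reached by 881 probes (2.15%) and by 0 of NR4A.

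Since each run held 1 array of each condition, differences were also taken within runs. NR4A1 was higher in PT-G than in medium in 4 of 4 runs, by 1.16 to 1.83 on the log2 scale, and in PT in 4 of 4 runs, by 0.93 to 1.93. For NR4A3 these differences were 1.28 to 2.04 and 1.00 to 2.24, again in 4 of 4 runs. NR4A2, whose groups overlapped when pooled, was higher in 4 of 4 runs as well, by 0.50 to 0.75 in PT-G and by 0.12 to 0.90 in PT. The highest of these values used MED-CTL replicate 2, where the NR4A2 spot was not well above background. Among runs with both spots well above background the NR4A2 differences were 0.50 to 0.73 in 3 runs for PT-G and 0.12 and 0.41 in 2 runs for PT. With p31-43 the sign varied, NR4A1 being higher in 1 of 4 runs and NR4A2 and NR4A3 in 3 of 4. PT-G exceeded PT in 3 of 4 runs for NR4A1 and NR4A2 and in 2 of 4 for NR4A3. The share of all probes that were higher in 4 of 4 runs was not computed, and both digests were compared with the same MED-CTL arrays.

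**Figure D3:**
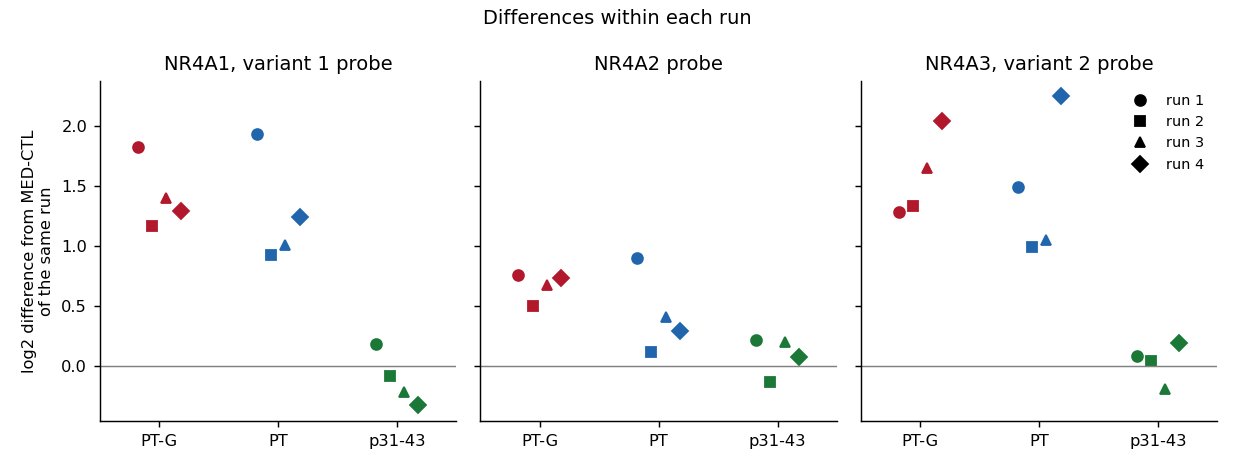
Log2 difference of each PT-G, PT and p31-43 array from the MED-CTL array of the same run, for 3 NR4A probes on a shared y axis. Symbols give the run and the grey line is 0. Every PT-G and PT point lies above 0 for the 3 probes, and the p31-43 points lie between −0.33 and 0.22.

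The runs fell in an early and a late period of 2 runs each. With PT-G, NR4A3 rose by 1.31 in the early and 1.84 in the late runs (adjusted p = 0.0431 and 0.0216 in limma), a difference of 0.54 (SE 0.33, adjusted p = 1). With PT the NR4A3 changes were 1.24 and 1.65 (adjusted p = 0.059 and 0.0299 in limma). The NR4A1 changes were 1.50 and 1.35 with PT-G (adjusted p = 0.0482 and 0.111 in limma) and 1.43 and 1.12 with PT (adjusted p = 0.0632 and 0.16). No NR4A probe passed the threshold for a difference between periods in limma, where 0.0708% of all probes did so for PT-G and 0.0878% for PT. An unadjusted p under 0.05 was reached by 893 of 40982 probes for PT-G, by 1424 for PT, and by 0 of NR4A.

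Across the 16 arrays the members followed each other to different degrees. Pearson's r was 0.91 between NR4A1 and NR4A3, 0.787 between NR4A1 and NR4A2 and 0.546 between NR4A2 and NR4A3. After the mean of each run was removed it was 0.958, 0.913 and 0.862. These values describe arrays that share conditions and runs, so no p is given. The NR4A1 variant 3 probe had r = 0.107 with the variant 1 probe.

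The 5 named genes most like NR4A1 variant 1 among 18450 probes well above background on every array were DUSP5, a phosphatase of ERK (r = 0.984), SSTR2, a somatostatin receptor (0.961), TRIB1 (0.961), SERTAD1 (0.96) and JUNB, an AP-1 subunit (0.956). Most like NR4A3 were TRIB1 (0.963), the stress-responsive factor ATF3 (0.958), PHLDA1 (0.958), the pseudogene DUSP5P (0.953) and the small GTPase GEM (0.946). Most like NR4A2 were KLF4, a transcription factor of differentiating gut epithelium (0.936), MLPH (0.916), EMP1 (0.913), OR2A9P (0.907) and the cyclic GMP phosphodiesterase PDE9A (0.903). For NR4A1 variant 3 the nearest were TUBB8 (0.925), RAB7 (0.912), TRIP10 (0.91), the kinase MAP2K2 (0.908) and TUBB3 (0.906). After the mean of each run was removed, r of these 5 fell to between 0.48 and 0.732. For the genes nearest the other probes it was then between 0.857 and 0.995. The means of the conditions were not removed, so these r include the shared differences between conditions. DUSP5P is a near copy of DUSP5 and could share its signal.

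To set the family beside its relatives, 44 other nuclear receptors on the array were taken by their brightest probe. Only 27 of the 44 were well above background on all 16 arrays, and changes of dim probes are understated. In PT-G 2 of the 44 passed the adjusted threshold, both higher, and in PT 1 did, with 0 lower. Of all probes 0.93% and 0.83% were called. With the replicate number as a block 5 passed in each, beside 3.92% of all probes in PT-G and 4.33% in PT. With only the 2 groups compared 0 did, beside 0.0878% and 0.0366% of all probes. NR1D1 (REV-ERBα), a repressor of the circadian clock, had a log2 change of 1.49 in PT-G (adjusted p = 0.0282 in limma) and 1.30 in PT (adjusted p = 0.059), and its other probe gave 1.08 in both. PPARA, a regulator of fatty acid oxidation, rose by 0.91 in PT-G (adjusted p = 0.00411 in limma) and 0.90 in PT (adjusted p = 0.00481), and its 3 other probes gave 0.14, 1.07 and 0.47 in PT-G. The median change over the 44 was −0.00245 in PT-G and −0.00956 in PT, beside −0.00564 and −0.0125 over all probes. The values reached from −0.94 to 1.49 in PT-G, so that NR4A3 lay above, and NR4A1 just below, the highest of them.

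**Figure D4:**
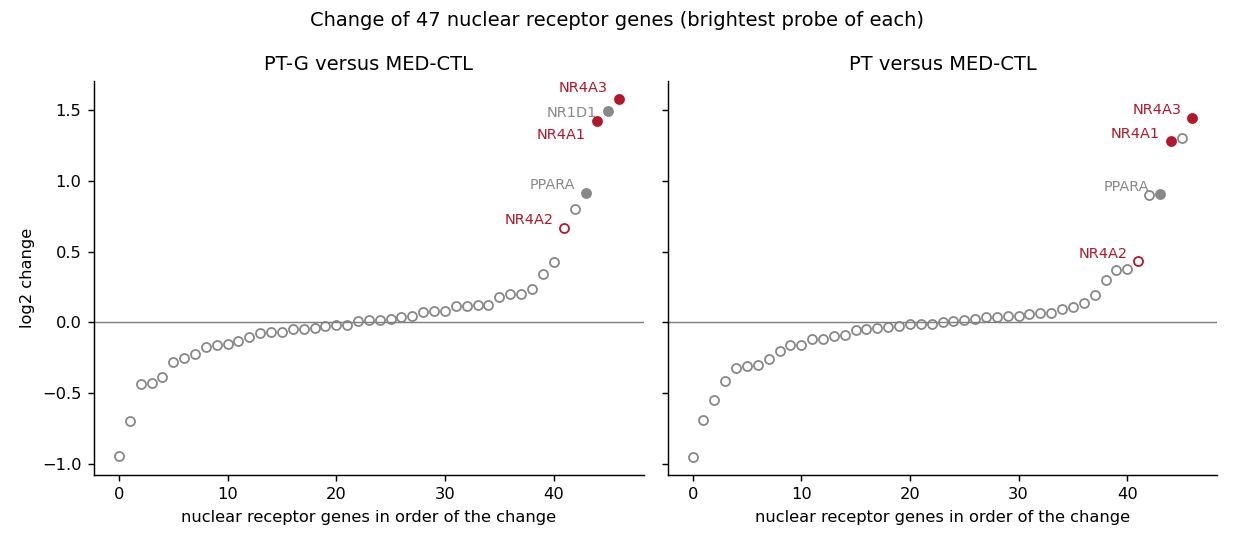
Log2 change of 47 nuclear receptor genes against MED-CTL, each by its brightest probe and placed in order of its change, for PT-G and PT. NR4A genes are red and the 44 others grey, filled where the adjusted p was under 0.05 in limma. NR4A1 and NR4A3 stand at 1.42 and 1.58 in PT-G while most other receptors lie near 0. Of the 44 others, 27 were well above background on all 16 arrays.

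Genes upstream of NR4A transcription numbered 28 and included prostaglandin and adrenergic receptors, protein kinase A, ERK and CREB, MEF2 and SRF with their cofactors. In PT-G 2 passed, both higher, and 0 were lower, beside 0.93% of all probes called. PTGER2, a prostaglandin E2 receptor that raises cyclic AMP, rose by 0.99 (adjusted p = 0.0188 in limma), and CRTC2, a coactivator of CREB, by 0.50 (adjusted p = 0.0214), with 0.70 and adjusted p = 0.333 for its other probe. In PT 0 of 28 passed, with 0.83 for PTGER2 (adjusted p = 0.0532 in limma) and 0.36 for CRTC2 (adjusted p = 0.123), and 6 had an unadjusted p under 0.05, which 8.95% of all probes had. With the replicate number as a block, 5 of 28 passed in PT-G and 4 in PT, beside 3.92% and 4.33% of all probes. The median was 0.13 in PT-G and 0.06 in PT.

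Of 16 partners and modifiers of the NR4A proteins, 0 passed in limma in either comparison, and 1 had an unadjusted p under 0.05 in each. The gene with an unadjusted p under 0.05 was RXRB, a retinoid X receptor, at −0.69 in both (adjusted p = 0.277 and 0.269 in limma). With the replicate number as a block 1 passed in PT-G and 2 in PT, where that model called 3.92% and 4.33% of all probes. RCOR1, a corepressor subunit, and the checkpoint kinase CHEK2 stood at 0.32 and 0.24 in PT-G.

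Among 35 genes described elsewhere as NR4A targets, mostly of steroid synthesis, dopamine neurons and muscle metabolism, 16 were well above background on all arrays and 0 passed in limma in either comparison. An unadjusted p under 0.05 was reached by 2 of 35 in each, beside 7.94% of all probes in PT-G and 8.95% in PT. A count this small does not set the list apart from all probes. In PT-G these 2 genes were UCP3, a mitochondrial carrier, at 0.56 (adjusted p = 0.128 in limma), and −0.24 for its second probe, and the thioredoxin family member TXNDC5 at 0.37 (adjusted p = 0.565). TXNDC5 stood at 0.44 with p31-43, so its difference from medium was not confined to the digests. With the replicate number as a block 1 passed in PT-G and 0 in PT, where that model called 3.92% and 4.33% of all probes. The median of the list was −0.03 in PT-G and −0.02 in PT, near that of all probes.

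Immediate early genes other than the NR4A family gave another picture. Of 34, 18 were called higher in PT-G and 17 in PT, with 0 called lower, where 0.583% and 0.434% of all probes were called higher. With only the 2 groups compared, the numbers called were 5 and 2, beside 0.0878% and 0.0366% of all probes. With the background-subtracted signal they were 15 and 12, beside 143 and 130 probes called in all. All 34 had a change above 0 in both comparisons. The median change was 1.08 in PT-G and 0.91 in PT. EGR4 and EGR3, zinc finger factors of the EGR family, rose by 2.99 and 2.91 in PT-G (adjusted p = 0.0183 and 0.00141 in limma). IER3, a regulator of survival, rose by 2.89 (adjusted p = 6.26e-05), DUSP5 by 1.83 (adjusted p = 0.000322), MAFF by 1.82 (adjusted p = 0.032) and JUNB by 1.78 (adjusted p = 0.00568, with 1.31 and adjusted p = 0.389 for its other probe). The PT changes of these 6 genes lay between 1.54 and 2.99. On these values without background subtraction, NR4A1 and NR4A3 were above the median of this list and NR4A2, a dim probe, below it. With p31-43, 0 of 34 passed in limma and 1 had an unadjusted p under 0.05. This list was drawn up knowing that such genes had moved in these arrays and is a description of the surroundings of the NR4A change.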

How the data were processed

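RNA of 16 Caco-2 cultures was hybridised on one colour arrays. The authors deposited the scanner's intensity for each spot and log2 values, which differ by at most 5e-09 from quantile-normalised log2 median foreground values with no background subtracted. The scanner files name Agilent Feature Extraction 9.5.3.1, and limma is named in the submitters' processing notes. The re-annotation of probes described in the methods was not used. From the deposited log2 values the 1639 control spots and the 1774 marked spots (0.256%, none of NR4A) were left out, and repeated spots were averaged per probe. At least 3 unmarked arrays per group were required, which left 40982 probes. A single linear model without a block covered the 4 conditions (limma 3.58.1, R 4.3.3), with moderated 2-sided tests and Benjamini-Hochberg adjustment over all probes within each comparison. The model was tested on simulated data. The number of arrays limits the precision.

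Members and gene lists were chosen with earlier results of these data known. All NR4A probes are described. In each list a gene was taken by its brightest probe, and those named were at most 6 with an adjusted p under 0.05 and the largest change, or the 3 of lowest p in PT-G, of which 1 is not reported here. The 5 most similar named genes were given for each probe. NR6A1 was not found by name. RefSeq matched 3 of 5 NR4A accessions. Deviations from group means correlated within same-numbered pairs at 0.396 to 0.857 for PT-G with MED-CTL and 0.262 to 0.706 for p31-43 with MED-CTL. They did so at −0.00256 to 0.412 for PT with MED-CTL and 0.0522 to 0.696 for PT-G with PT. By run, these were 0.629 to 0.857, 0.538 to 0.706, −0.00256 to 0.621 and 0.0522 to 0.696. MED-CTL replicates 1 and 2 were run with replicates 2 and 1 of the other conditions, so label numbers and runs differ there. Whether unpaired arrays correlate less was not tested. Alternatives tried were other background corrections and normalisations, the mean foreground, marked spots kept, a filter on dim probes, blocks for run, slide, period and replicate number, array weights (statmod 1.5.0), an intensity trend, only the 2 groups compared, and each array left out.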

Additional observations from a re-analysis of the deposited data

Results flagged for a closer look

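In 20 groups of 4 arrays (5 probes in 4 conditions), 2 held an array far from the other 3, by Dixon's criterion on the gap over the group's range. Chance gives this in about 1 in 20 groups. NR4A2 stood at 7.14 in MED-CTL replicate 1 and between 6.17 and 6.32 in the others, a ratio of 0.846. That array belonged to run 2, in which NR4A2 was the highest of its group in every condition. The NR4A3 variant 4 probe stood at 5.71 in PT-G replicate 2, also of run 2, and between 6.00 and 6.06 in the others, a ratio of 0.843, on spots that were not well above background.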

How the results depend on the processing

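Each value was recomputed under up to 14 other settings and with each of the 16 arrays left out. NR4A3 in PT-G kept an adjusted p under 0.05 in limma in all 30 of these, and NR4A1 in both digests and NR4A3 in PT in 29 of 30. The exception was a fit of only the 2 groups compared, where adjusted p was 0.058 for NR4A1 in PT-G, 0.0748 for NR4A1 in PT, 0.073 for NR4A3 in PT and 0.037 for NR4A3 in PT-G. This left 1 NR4A probe called in PT-G and 0 in PT, in fits of fewer arrays that called 0.0878% and 0.0366% of all probes. NR4A2 passed under 2 of 30 settings in each digest, the run block and the slide block (adjusted p = 0.00359 in PT-G and 0.0394 in PT with the slide, where 9.32% and 6.93% of all probes were called). With the replicate number as a block in the pairing of the labels, NR4A2 had adjusted p = 0.115 in PT-G and 0.297 in PT, the NR4A probes called stayed 2 in each digest and 0 in p31-43 and in PT-G versus PT, and no NR4A call changed. The count over all probes, 381 in PT-G, was lowest at 167 without PT-G replicate 2 and stood at 188 and 197 without MED-CTL replicate 2 and PT-G replicate 4. In PT, with 340, it was lowest at 146 without MED-CTL replicate 2 and between 157 and 197 without 1 of the PT arrays, while 2 NR4A probes were called in each of these fits.

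Small differences changed sign. The NR4A1 variant 3 probe (A_23_P309278) was 0.018 in PT-G versus MED-CTL and 0.060 in PT-G versus PT with array weights. In p31-43, NR4A2 was −0.14 with median scaling, and NR4A3 was −0.15 with median scaling and −0.24 with the background-subtracted signal. The late minus early difference of NR4A2 in PT-G was −0.16 with the background-subtracted signal. The cause was not tested. With each array left out, p31-43 differences ran from −0.28 to 0.027 for NR4A1, −0.052 to 0.31 for NR4A2 and −0.037 to 0.097 for NR4A3. Those of NR4A3 in PT-G versus PT ran from −0.0097 to 0.33. For NR4A1 variant 3 the ranges were −0.097 to 0.031 in PT, −0.15 to 0.014 in PT-G and −0.12 to 0.043 in PT-G versus PT. Late minus early differences ran from −0.77 to 0.15 (PT) and −0.61 to 0.31 (PT-G) for NR4A1, and from −0.64 to 0.32 and −0.40 to 0.56 for NR4A2. Those of NR4A3 ran from 0.010 to 0.80 (PT) and 0.34 to 0.74 (PT-G). Over all probes, 29 were called for this difference in PT-G and 36 in PT, which ran from 19 without PT replicate 1 to 144 without MED-CTL replicate 3 and from 17 to 149 without the same arrays. Called list genes, as given with the lists, were more with blocks for run, slide or replicate number for the other receptors, upstream regulators and partners.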
